A study of Neurospora crassa with 18 samples.

Results

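The genes described here are 3 transcription factors and 2 sugar transporters through which *Neurospora crassa* senses and uses plant cell wall polymers. They are *clr-1* (NCU07705), *clr-2* (NCU08042), *xlr-1* (NCU06971), *cdt-1* (NCU00801) and *cdt-2* (NCU08114), 5 of the 9730 genes counted, and they were taken by locus tag. Their RNA was measured in germinated conidia of 4 strains, and their chromatin was read from lists of genes that carry H3K36 methylation by ASH1 or H3K27me2/3 by Polycomb repressive complex 2.

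The strains were *ash1*(Y888F), which is *mat A; his-3* and carries a tyrosine change in the catalytic SET domain of the H3K36 methyltransferase ASH1 with a 3xFLAG tag and an *hph* marker; Δ*set-2*, which is *mat a* and lacks the other H3K36 methyltransferase, SET-2; a Δ*mus-52* strain, *mat A; his-3; Δmus-52::bar*, which the labels count as a WT; and WT, *mat A; his-3*. In a figure on *ash1*(Y888F), the paper names a strain of this Δ*mus-52* genotype as the parent strain and includes it as a control. Each group is 1 strain with 2 poly-A+ RNA libraries, described by the authors as biological replicates, and Δ*set-2* differs from WT also in mating type and at *his-3*. RNA of the whole culture was measured, so fewer expressing cells and less RNA per cell cannot be told apart.

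CLR-1 and CLR-2 are zinc binuclear cluster transcription factors that are needed for growth on cellulose: CLR-1 acts when cellobiose or longer cellodextrins are present and turns on *clr-2*, and CLR-2 in turn drives the cellulase genes. XLR-1 is the corresponding regulator for xylan and xylose and adds to the expression of some cellulases. CDT-1 and CDT-2 are membrane transporters of the major facilitator superfamily that bring cellodextrins into the cell, and in the absence of plant cell wall substrates the genes of this system are expressed at low levels.

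A library held 6547197 to 8837798 counts in genes, and 4.89 to 14.8% of the reads counted were assigned to no gene (14.4 and 14.5% in *ash1*(Y888F), with 14.8 and 14.0% for Δ*set-2*, 4.89 and 5.70% in Δ*mus-52*, 10.8 and 9.56% in WT). The library names carry dates, whose meaning is not stated: replicate 1 of *ash1*(Y888F) has a date of its own, replicate 2 shares one with both Δ*set-2* libraries, and the Δ*mus-52* and WT libraries share the third, so strain and date cannot be told apart for either mutant against WT. The labelled cell type was checked with 6 genes of conidiation (*con-6*, *con-8*, *con-10*, *con-13*, *eas* and *cat-1*). Their summed level was 321 and 270 CPM (counts scaled to a common library size) in *ash1*(Y888F), 939 and 963 CPM in Δ*set-2*, 266 and 254 CPM in Δ*mus-52* and 184 and 116 CPM in WT, and *con-13* had 0 to 4 counts in every library. These sums do not overlap between WT and any of the other 3 strains, and their part in the results below was not tested. The markers moved in both directions in *ash1*(Y888F) over WT, where *eas* fell by 2.24 on the log2 scale (edgeR adjusted p = 0.00686) while *con-6* and *con-10* rose by 2.91 and 2.74 (adjusted p = 0.0766 and 0.0925). In Δ*set-2* 4 of the 5 markers tested rose and none fell, and in Δ*mus-52* 1 rose, *eas*, by 1.72 (adjusted p = 0.0564). Of all genes tested against WT, 13% were higher and 3.36% lower in *ash1*(Y888F). The shares were 21.7 and 19.8% in Δ*set-2* and 0.268 and 1.51% in Δ*mus-52*. The 2 *ash1*(Y888F) libraries differed from each other by a median of 0.44 on the log2 scale over genes, against 0.26 in Δ*set-2*, 0.23 in Δ*mus-52* and 0.25 in WT.

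In WT the 5 genes spanned a wide range of levels. Per kb of gene span, *clr-1* averaged 8.78 ± 2.56 CPM, *cdt-1* 5.16 ± 3.87, *xlr-1* 1.04 ± 0.0042, *cdt-2* 0.251 ± 0.013 and *clr-2* 0.221 ± 0.039 CPM per kb (SD, n = 2). The regulator *clr-1* and the transporter *cdt-1* lay above 36.8 and 26.5% of ASH1-unmarked genes, whereas *clr-2* and *cdt-2* rested on 4 to 6 counts in each WT library. The median was 0.162 CPM per kb over ASH1-marked genes and 13.9 CPM per kb over unmarked genes. Among ASH1-marked genes, 92.5% lay below *clr-1*, 72.7% below *xlr-1*, 55.3% below *cdt-2* and 53.9% below *clr-2*. *clr-1* and *xlr-1* thus lay in the upper part of their class, and *cdt-2* and *clr-2* near its middle.

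**Figure D1:**
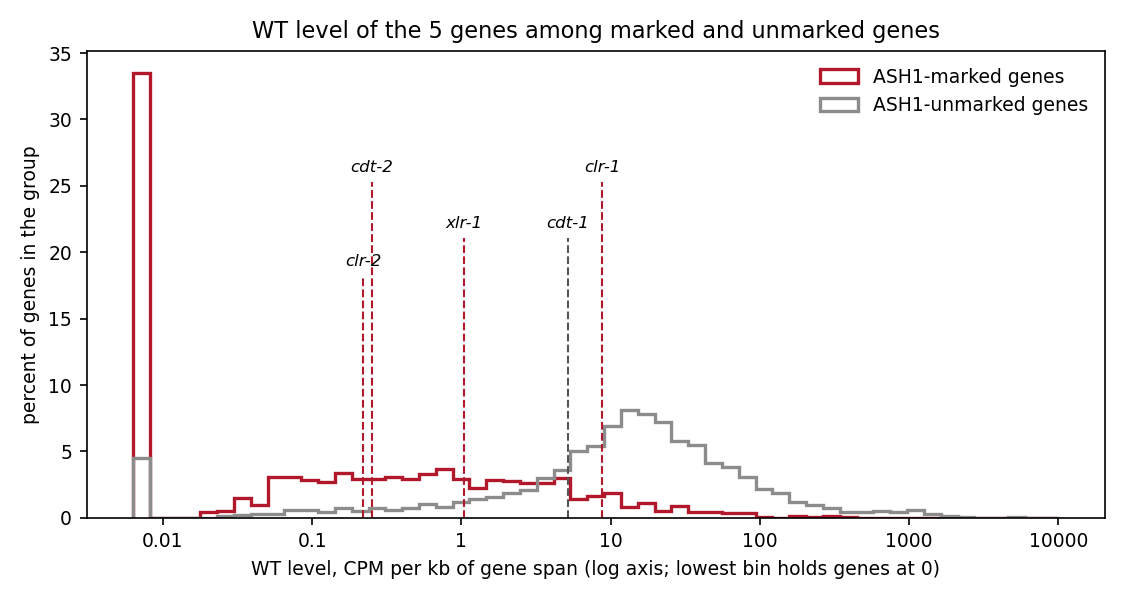
Distribution of WT levels (CPM per kb of gene span, log axis) over ASH1-marked genes (red line) and unmarked genes (grey line), as percent of each class, with dashed lines at the WT mean of each of the 5 genes (red where marked, grey where not). *clr-1* at 8.78 CPM per kb is the highest of the 5 and *clr-2* at 0.221 CPM per kb the lowest, and the first bin holds genes at 0.

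ASH1 marking is defined by the authors' list of genes whose mean H3K36me2 in Δ*set-2*, where ASH1 is the remaining H3K36 methyltransferase, lay above the level of the centromeres. The list rests on 1 ChIP-seq sample and gives membership only, with no signal and no replicate error. All 3 regulators and *cdt-2* were on it and *cdt-1* was not, which is 4 of 5 members, against 1970 of 9730 genes (20.2%). None of the 5 was among the 836 genes (8.59%) with H3K27me2/3, and none was in the 592-gene tables of H3K27 methylation change. Those tables therefore give no value for these 5 genes, and the H3K27 ChIP-seq coverage over them was not read.

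On the NC12 assembly, with positions counted from 1, the 3 regulators lie apart on linkage group (LG) IV. *clr-1* is at LG IV 2149157 to 2154036 on the minus strand, *clr-2* at LG IV 4001190 to 4004643 on the plus strand and *xlr-1* at LG IV 4706112 to 4709560 on the minus strand. The transporters are on LG I, *cdt-1* at 7121829 to 7125021 and *cdt-2* at 318873 to 321079, both on the minus strand. The spans are those of whole genes, exons and introns included, and they are the same in the RefSeq annotation.

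By list membership, most of the marked members stood without a marked neighbour. The list holds no signal between genes, and the paper describes ASH1 methylation over large domains that take in several genes. Of the 4 marked members, *clr-1*, *clr-2* and *cdt-2* had no marked gene next to them, a position that 474 of the 1970 marked genes (24.1%) shared over the genome. *xlr-1* had a marked gene, NCU06973, 10736 bases from its start. The unmarked *cdt-1* has NCU10770 within its span on the opposite strand, with 0 counts in all 8 libraries, and the next gene upstream, NCU00800, named after its mark was seen, is marked and lies 2.29 kb away. The nearest H3K27me2/3 window lay 4348 bases from *cdt-2*, over NCU08113, 331341 bases from *xlr-1* and over 1000 kb from the other 3 genes (1036258 to 1742128 bases).

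**Figure D2:**
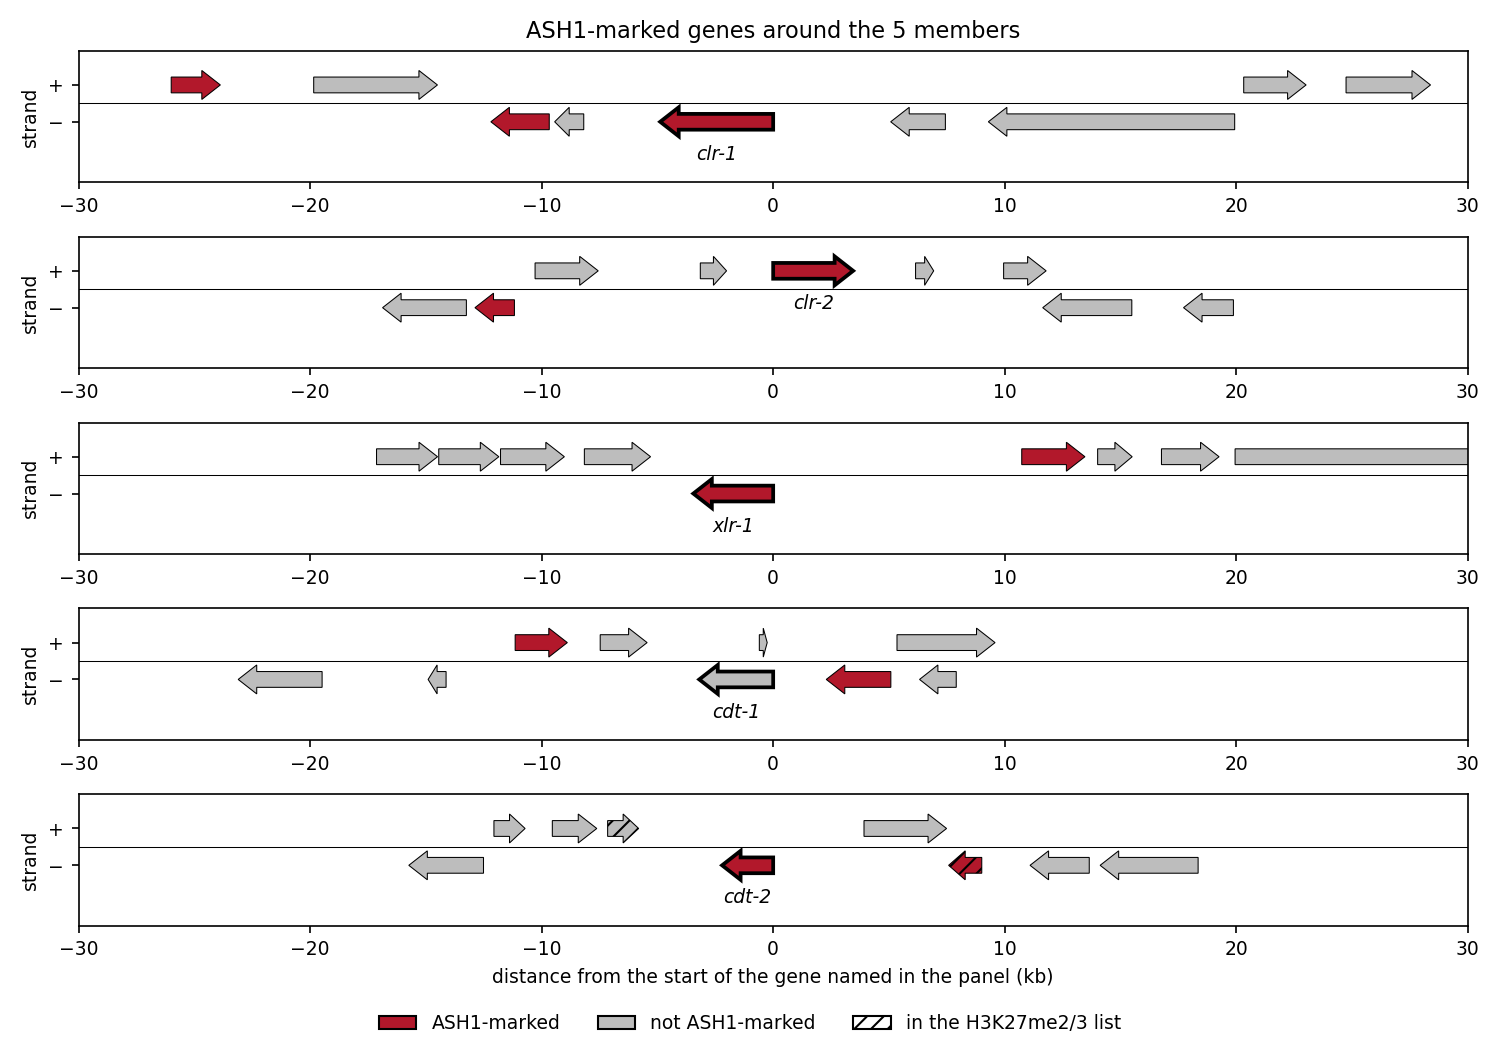
Each member with up to 4 listed genes on either side, inside a window of 30 kb, drawn to scale as distance in kb from the start of the member (bold outline), with plus-strand genes above and minus-strand genes below the line. Red marks ASH1-marked genes, grey unmarked genes and hatching genes in the H3K27me2/3 list. *clr-1*, *clr-2* and *cdt-2* are flanked by unmarked genes on both sides, and *cdt-1* is grey.

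The comparison of *ash1*(Y888F) with WT asked whether these genes change when ASH1 loses its catalytic activity. With edgeR's quasi-likelihood test, Benjamini-Hochberg adjusted over all genes and read at an adjusted p under 0.1, *clr-2*, *xlr-1* and *cdt-2* rose 3.46- to 4.08-fold, and none of the 5 genes fell. That is 3 of 5 members higher, where 13% of 8125 genes tested were higher and 3.36% lower. Among ASH1-marked genes 58.4% were higher (681 of 1167) and among unmarked genes 5.35% (372 of 6958), beside 3 of the 4 marked members and 0 of the 1 unmarked member. The median log2 fold change of the 5 genes was 1.86, against 2.34 over marked genes and 0.01 over all genes tested. Over Δ*mus-52*, which the paper calls the parent strain, edgeR called 1 member, *cdt-1*, and the 3 calls over WT were lost. Over WT no member was called at an adjusted p under 0.05, 4 had an unadjusted p under 0.05, and DESeq2 called 1 member. The count was 0 without *ash1*(Y888F) replicate 2 or without WT replicate 2. Without WT replicate 1 it was 1, *cdt-1*, with all 3 calls lost, and without *ash1*(Y888F) replicate 1 it was 3, with *cdt-1* called and *clr-2* not.

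*clr-1*, the upstream regulator, had 190 and 498 counts in *ash1*(Y888F), with 234 and 330 counts for Δ*set-2*, 290 and 255 in Δ*mus-52* and 361 and 255 in WT. Scaled to library size these are 29.2 and 66.0 CPM in *ash1*(Y888F), with 29.2 and 40.1 CPM for Δ*set-2*, 37.4 and 29.6 CPM in Δ*mus-52* and 51.7 and 34.0 CPM in WT. One *ash1*(Y888F) library lay below both WT libraries and the other above them, and Δ*set-2* and Δ*mus-52* overlapped WT. The log2 fold change of *clr-1* was 0.18 ± 0.44 (SE) for *ash1*(Y888F) over WT (edgeR adjusted p = 0.852) and -0.25 ± 0.28 for Δ*set-2* over WT (adjusted p = 0.531), so that neither passed the test. Without *ash1*(Y888F) replicate 2 the first value was -0.54 (adjusted p = 0.359). Over Δ*mus-52* *clr-1* gave 0.54 ± 0.42 in *ash1*(Y888F) (adjusted p = 0.461), and with *ash1*(Y888F) replicate 2 alone it gave 1.00 ± 0.25 (adjusted p = 0.0258). In order of mean level the strains were *ash1*(Y888F), WT, Δ*set-2* and Δ*mus-52*, and no neighbours in this order differed beyond their spread.

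*clr-2*, the activator of cellulase genes that CLR-1 turns on, had 16 and 21 counts in *ash1*(Y888F), with 14 and 12 counts for Δ*set-2*, 7 and 10 in Δ*mus-52* and 6 and 5 in WT. These correspond to 2.46 and 2.78 CPM in *ash1*(Y888F), with 1.75 and 1.46 CPM for Δ*set-2*, 0.902 and 1.16 CPM in Δ*mus-52* and 0.860 and 0.667 CPM in WT. The 4 strains did not overlap in CPM: both *ash1*(Y888F) libraries were above both of Δ*set-2*, those above both of Δ*mus-52*, and these above both of WT. *clr-2* rose in *ash1*(Y888F) by 1.79 ± 0.50 on the log2 scale, 3.46-fold (adjusted p = 0.0805), and was 1.11 ± 0.47 higher in Δ*set-2*, which did not pass the test (adjusted p = 0.117). Between neighbours in the order, *ash1*(Y888F) against Δ*set-2* gave 0.68 ± 0.44 (adjusted p = 0.308) and Δ*set-2* against Δ*mus-52* gave 0.68 ± 0.44 (adjusted p = 0.250). In Δ*mus-52* against WT *clr-2* was under the low-count limit of the main test. The alternatives that tested this step did not pass. They gave 0.42 ± 0.48 in the fit of all 4 strains (adjusted p = 0.800), 0.42 ± 0.55 without a low-count filter (adjusted p = 0.739) and 0.44 ± 1.08 with DESeq2 (adjusted p = 0.936). The call in *ash1*(Y888F) was lost whichever library was left out (log2 fold change 1.61 to 1.98), and against Δ*mus-52* the value was 1.35 ± 0.45 (adjusted p = 0.114). It held in the fit of all 4 strains (1.78, adjusted p = 0.0319), over both control strains pooled (1.56, adjusted p = 0.0242) and with RLE size factors (1.79, adjusted p = 0.0790). It was lost with DESeq2 (adjusted p = 0.261), without a low-count filter (adjusted p = 0.128) and with the replicate block (adjusted p = 0.177).

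*xlr-1*, the regulator of xylan use, had 48 and 137 counts in *ash1*(Y888F), with 55 and 59 counts for Δ*set-2*, 72 and 81 in Δ*mus-52* and 25 and 27 in WT. In CPM these were 7.37 and 18.2 in *ash1*(Y888F), with 6.86 and 7.17 for Δ*set-2*, 9.28 and 9.39 in Δ*mus-52* and 3.58 and 3.60 in WT. WT was below all 6 other libraries, and replicate 1 of *ash1*(Y888F) lay beside Δ*set-2* and below both Δ*mus-52* libraries. *xlr-1* rose in *ash1*(Y888F) by 1.86 ± 0.53 on the log2 scale over WT, 3.63-fold (adjusted p = 0.0827), and in Δ*set-2* by 1.02 ± 0.31, 2.03-fold (adjusted p = 0.0526).

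The libraries of the 2 control strains did not overlap in *xlr-1* either. In Δ*mus-52* it was 1.37 ± 0.26 higher than in WT on the log2 scale, 2.58-fold, which missed the threshold in edgeR (adjusted p = 0.113) and passed it in DESeq2 (adjusted p = 0.0537). With a block for the replicate number, edgeR gave 1.37 and passed the threshold (adjusted p = 0.0280). Set against Δ*mus-52*, the *xlr-1* values were 0.48 ± 0.48 in *ash1*(Y888F) (adjusted p = 0.566) and -0.35 ± 0.26 in Δ*set-2* (adjusted p = 0.313), so neither mutant call held with that control, although *ash1*(Y888F) replicate 2 alone gave 0.98 (adjusted p = 0.0561). In order of mean level the strains were *ash1*(Y888F), Δ*mus-52*, Δ*set-2* and WT, and of the neighbours only Δ*set-2* and WT differed past the threshold, although the libraries of Δ*mus-52* and Δ*set-2* did not overlap either. The *ash1*(Y888F) call over WT was also lost without *ash1*(Y888F) replicate 2 (1.05, adjusted p = 0.207), without WT replicate 1 (1.86, adjusted p = 0.218) and without WT replicate 2 (1.86, adjusted p = 0.205), and the Δ*set-2* call without any one library (adjusted p 0.136 to 0.210).

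**Figure D3:**
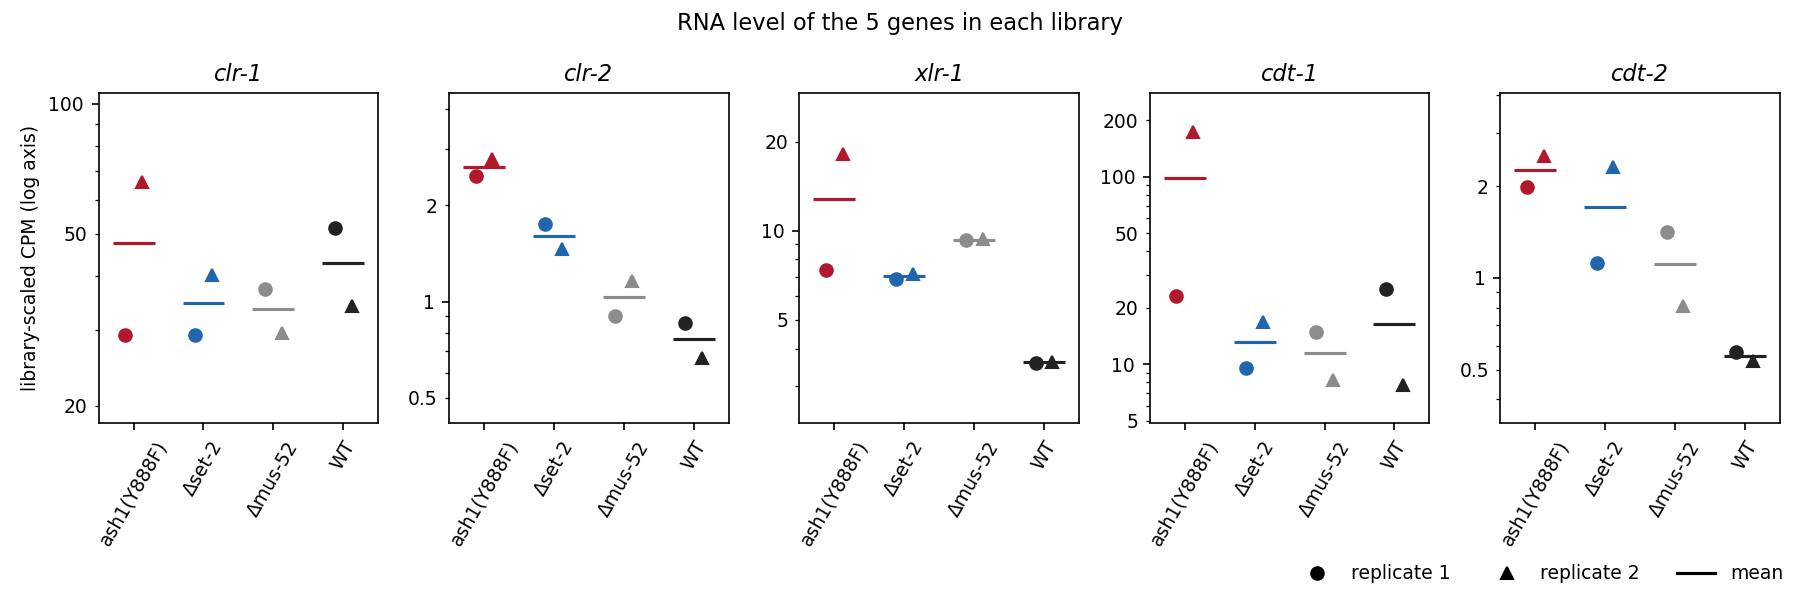
Library-scaled CPM (log axes that differ between panels) of the 5 genes in *ash1*(Y888F), Δ*set-2*, Δ*mus-52* and WT. Circles are replicate 1, triangles replicate 2 and lines the mean of the 2 libraries. The *cdt-1* panel shows 174 CPM in replicate 2 of *ash1*(Y888F) beside 23 CPM in replicate 1, and the *xlr-1* panel shows WT alone at the bottom at 3.58 and 3.60 CPM.

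Of the transporters, *cdt-1* had 150 and 1313 counts in *ash1*(Y888F), with 77 and 138 counts for Δ*set-2*, 115 and 71 in Δ*mus-52* and 176 and 58 in WT. These were 23 and 174 CPM in *ash1*(Y888F), with 9.60 and 16.8 CPM for Δ*set-2*, 14.8 and 8.23 CPM in Δ*mus-52* and 25.2 and 7.74 CPM in WT. A single library, replicate 2 of *ash1*(Y888F), stood far above the others, and replicate 1 of that strain was within the WT range. The 2 *ash1*(Y888F) libraries differed 7.56-fold in *cdt-1*, a gap larger than that of 99.2% of genes, and the 2 WT libraries differed 3.26-fold, larger than 98.9%. The same *ash1*(Y888F) library was the higher one for *clr-1* (2.26-fold) and *xlr-1* (2.47-fold), whereas its *clr-2* and *cdt-2* levels were 1.13- and 1.26-fold those of replicate 1.

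*cdt-1* was 2.61 ± 0.99 higher in *ash1*(Y888F) than in WT on the log2 scale and did not pass the test (adjusted p = 0.174). The value was 3.43 (adjusted p = 0.00816) without *ash1*(Y888F) replicate 1, 0.49 (adjusted p = 0.657) without *ash1*(Y888F) replicate 2 and 3.70 (adjusted p = 0.0896) without WT replicate 1. Against Δ*mus-52*, where *ash1*(Y888F) had 15.9% of genes higher and 4.01% lower, *cdt-1* was the 1 member called, at 3.12 ± 0.94 (adjusted p = 0.0886), and this call was lost without *ash1*(Y888F) replicate 2 (1.03, adjusted p = 0.111) and without Δ*mus-52* replicate 2 (2.79, adjusted p = 0.101). Its change over WT in Δ*set-2* was -0.26 ± 0.57 (adjusted p = 0.756). In order of mean level the strains were *ash1*(Y888F), WT, Δ*set-2* and Δ*mus-52*, and no neighbours in this order passed the test.

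*cdt-2*, the other cellodextrin transporter and the one on the ASH1 list, had 13 and 19 counts in *ash1*(Y888F), with 9 and 19 counts for Δ*set-2*, 11 and 7 in Δ*mus-52* and 4 and 4 in WT. This amounts to 2.00 and 2.52 CPM in *ash1*(Y888F), with 1.12 and 2.31 CPM for Δ*set-2*, 1.42 and 0.812 CPM in Δ*mus-52* and 0.573 and 0.534 CPM in WT. WT was again below all other libraries, while Δ*set-2* overlapped both *ash1*(Y888F) and Δ*mus-52*. *cdt-2* rose in *ash1*(Y888F) by 2.03 ± 0.53 on the log2 scale over WT, 4.08-fold (adjusted p = 0.0665), and gave 1.05 ± 0.50 over Δ*mus-52* (adjusted p = 0.242). It lost its call with DESeq2 (2.04, adjusted p = 0.238), without a low-count filter (2.01, adjusted p = 0.111) and with the replicate block (2.02, adjusted p = 0.148). It kept the call in the fit of all 4 strains (adjusted p = 0.0542), with RLE size factors (adjusted p = 0.0651) and over both control strains pooled (adjusted p = 0.0777). The call over WT was lost without *ash1*(Y888F) replicate 2 (1.83, adjusted p = 0.207) and without WT replicate 1 or 2 (2.08 and 1.97, adjusted p = 0.327 and 0.421). In Δ*set-2* and in Δ*mus-52* against WT the gene was under the low-count limit of the main test, but some alternatives tested it. In Δ*mus-52* none of them passed. They gave 1.00 with DESeq2 (adjusted p = 0.825), 0.97 without a low-count filter (adjusted p = 0.509) and 0.97 in the fit of all 4 strains (adjusted p = 0.580). In Δ*set-2* *cdt-2* gave mixed results. It passed without Δ*set-2* replicate 1 (2.06, adjusted p = 0.0613) and in the fit of all 4 strains (1.64, adjusted p = 0.0843). It did not pass without WT replicate 1 (1.71, adjusted p = 0.222), without WT replicate 2 (1.61, adjusted p = 0.295), without a low-count filter (1.65, adjusted p = 0.117), with DESeq2 (1.67, adjusted p = 0.289) or over both control strains pooled (1.06, adjusted p = 0.141). The order of mean level was *ash1*(Y888F), Δ*set-2*, Δ*mus-52* and WT, with no difference beyond the spread between *ash1*(Y888F) and Δ*set-2* (0.36 ± 0.52, adjusted p = 0.648) or between Δ*set-2* and Δ*mus-52* (0.70 ± 0.55, adjusted p = 0.339).

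In Δ*set-2* against WT, which asked what loss of the other H3K36 methyltransferase does, 1 of the 4 members tested was higher and none lower, where 21.7% of 7741 genes were higher and 19.8% lower. That member was *xlr-1*, and with DESeq2 no member was called. Against Δ*mus-52*, where Δ*set-2* had 27.2% of genes higher and 25.1% lower, none of the 5 was called by edgeR, with 0 at an unadjusted p under 0.05, and DESeq2 was not run. In Δ*mus-52* against WT, edgeR called none of the 3 members tested, with 1 at an unadjusted p under 0.05 and 1 called by DESeq2, and it called 0.268% of 7464 genes higher and 1.51% lower.

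**Figure D4:**
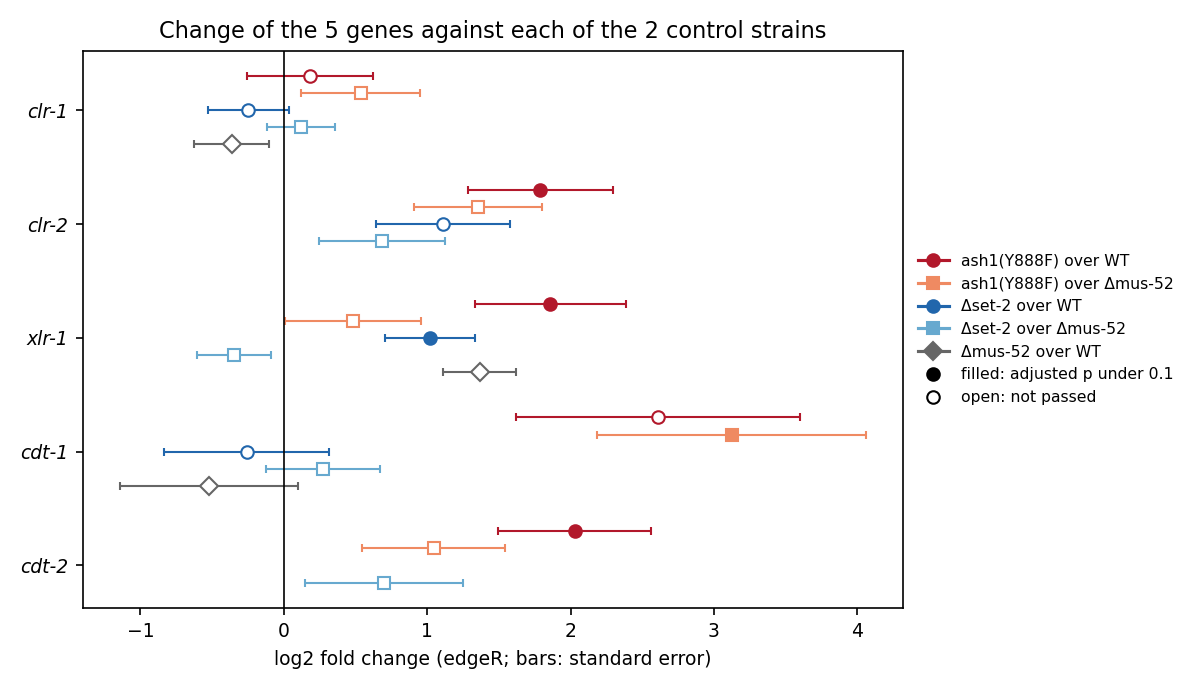
Log2 fold changes of the 5 genes with their standard errors (edgeR), for *ash1*(Y888F) over WT and over Δ*mus-52*, Δ*set-2* over WT and over Δ*mus-52*, and Δ*mus-52* over WT. Filled symbols have an adjusted p under 0.1. *xlr-1* is at 1.86 in *ash1*(Y888F) over WT and at 0.48 over Δ*mus-52*, and *cdt-1* is at 2.61 and 3.12.

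The mutants were then compared with each other. They differ also in mating type and at *his-3*, and replicate 1 of *ash1*(Y888F) has a date of its own. These differences cannot be told apart from that of the methyltransferases. *cdt-1* was 2.89 ± 0.96 higher on the log2 scale when *ash1*(Y888F) was set against Δ*set-2* (adjusted p = 0.0701), and it was the only one of the 5 that passed, where 17.7% of 8314 genes were higher and 14% lower. *xlr-1* gave 0.85 ± 0.47 (adjusted p = 0.233) and *clr-1* 0.44 ± 0.43 (adjusted p = 0.501). Replicate 2 of *ash1*(Y888F) shares its date with both Δ*set-2* libraries, and with this library alone the differences were 3.72 for *cdt-1* (adjusted p = 0.0129) and 1.37 for *xlr-1* (adjusted p = 0.0344). Without *ash1*(Y888F) replicate 2 the *cdt-1* difference was 0.79 (adjusted p = 0.417), and without Δ*set-2* replicate 1 or 2 it was 2.55 and 3.35 (adjusted p = 0.246 and 0.195).

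The 10 genes next to the members served to see how local the changes were. In *ash1*(Y888F) over WT 13% of all genes were higher and 3.36% lower, with 58.4% of ASH1-marked and 5.35% of unmarked genes higher. Of the 6 neighbours that could be tested there, 1 rose and none fell. It was the 1 ASH1-marked neighbour, NCU06973 beside *xlr-1*, with 20 and 46 counts in *ash1*(Y888F), with 0 and 1 counts for Δ*set-2*, 1 and 0 in Δ*mus-52* and 1 and 0 in WT. Its ratio of *ash1*(Y888F) over WT was 68.0, with a 95% counting interval of 11.8 to 2725 (edgeR adjusted p = 0.0147), and in Δ*set-2* it had no more counts than in WT. This call held without any one library (highest adjusted p = 0.0341). NCU08113, the neighbour of *cdt-2* with H3K27me2/3, had 6 and 6 counts in *ash1*(Y888F) and 5 and 4 in WT and was not tested.

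In Δ*set-2* over WT the flanking genes of *xlr-1*, *cdt-1* and *cdt-2* gave 3 calls among 5 neighbours tested. NCU00802 beside *cdt-1* rose by 1.26 ± 0.24 on the log2 scale (edgeR adjusted p = 0.0132), NCU06970 beside *xlr-1* fell by 0.84 (SE 0.23, adjusted p = 0.0396) and the mismatch repair gene *msh3* beside *cdt-2* fell by 0.99 (SE 0.23, adjusted p = 0.0251). The call of NCU06970 was lost without Δ*set-2* replicate 2 (-0.65, adjusted p = 0.164) or WT replicate 2 (-0.64, adjusted p = 0.198), and that of *msh3* without WT replicate 2 (-0.79, adjusted p = 0.125). All 3 are unmarked, and over all genes 21.7% were higher and 19.8% lower in this comparison.

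Across the 8 libraries the members did not move as 1 group. The correlation of log2 CPM was 0.84 between *clr-1* and *cdt-1* and 0.80 between *clr-2* and *cdt-2*, but 0.16 between the consecutive regulators *clr-1* and *clr-2* and 0.60 between the 2 transporters (Pearson, 8 libraries of 4 strains that share depth and strain effects). The *clr-1* and *cdt-1* value leans on replicate 2 of *ash1*(Y888F), where both genes were highest.

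Among 6471 genes with enough reads, of which 317 (4.90%) were ASH1-marked, the 2 most like each member by this measure were all unmarked. For *clr-1* they were *gel-3* (r = 0.981), of a family of cell wall glucanosyltransferases, with 7091 and 14007 counts in *ash1*(Y888F) and 10721 and 9252 in WT, and NCU07158 (r = 0.969). For *clr-2* they were NCU05454 (r = 0.983), with 3406 and 3833 counts in *ash1*(Y888F) and 1968 and 1744 in WT, and NCU02887 (r = 0.964). For *xlr-1* they were NCU06361 (r = 0.968) and NCU03257 (r = 0.963), for *cdt-1* *gh76-3* (r = 0.979) of glycoside hydrolase family 76 and NCU05308 (r = 0.966), and for *cdt-2* NCU01769 (r = 0.959) and NCU02688 (r = 0.944). With Spearman's correlation in place of Pearson's, 1 of these 10 genes was still among the 2 most alike.

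The rest of the pathway was read from 3 lists with 37 genes in all. The cellulose and hemicellulose enzymes, with 10 of 19 genes ASH1-marked, gave 6 higher and 0 lower of 15 tested in *ash1*(Y888F) over WT, and the median log2 fold change of those tested was 1.28, against 0.01 over all genes. Over all genes 13% were higher, and over ASH1-marked genes 58.4% were. The β-glucosidase gene *gh1-1* had 212 and 1183 counts in *ash1*(Y888F), against 66 and 73 in WT, and rose by 3.33 ± 0.73 on the log2 scale (adjusted p = 0.0367). The β-glucosidase gene *gh3-4* had 30 and 72 counts in *ash1*(Y888F), against 1 and 1 in WT, a ratio of 52.5 with a 95% counting interval of 14.2 to 440 (adjusted p = 0.00903). *gh10-1*, of a xylanase family, had 64 and 15 counts in *ash1*(Y888F), against 0 and 0 in WT, at least 27.1-fold higher with a floor of 3 counts over the WT group (adjusted p = 0.0395). NCU02343, which has no symbol in RefSeq, had 419 and 400 counts in *ash1*(Y888F), against 121 and 125 in WT, and rose by 1.81 ± 0.25 (adjusted p = 0.00954). All 4 calls held without any one library (highest adjusted p = 0.0684), although *gh1-1* was then at 1.77 without *ash1*(Y888F) replicate 2. *gh1-1* was far higher in that library, like *cdt-1*, and NCU02343 was alike in both. The other 2 enzymes called were *gh5-1* (2.48 ± 0.59, adjusted p = 0.0478) and *cdh-1* (2.09 ± 0.55, adjusted p = 0.0648). Each of these calls was lost without some single libraries, with values of 1.92 to 3.12 for *gh5-1* and 1.32 to 2.58 for *cdh-1*.

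In Δ*set-2* over WT the same enzyme list gave 3 higher and 2 lower of 12 tested, near the shares over all genes (21.7% higher and 19.8% lower). NCU02343, which also rose in *ash1*(Y888F), had 255 and 293 counts in Δ*set-2*, against 121 and 125 in WT, and rose by 1.04 ± 0.21 on the log2 scale (adjusted p = 0.0155), a call that held without any one library (highest adjusted p = 0.0872). NCU01900 had 71 and 45 counts in Δ*set-2*, against 17 and 12 in WT, and rose by 1.88 ± 0.43 on the log2 scale (adjusted p = 0.0219). *gh1-1* had 10 and 17 counts in Δ*set-2*, against 66 and 73 in WT, and fell by 2.46 (SE 0.38, adjusted p = 0.00762). *gh11-1*, of another xylanase family, had 12 and 4 counts in Δ*set-2*, against 31 and 42 in WT, and fell by 2.28 (SE 0.53, adjusted p = 0.0243). *gh1-1* therefore moved in opposite directions in the mutants, and its difference between them was 5.81 ± 0.83 (adjusted p = 0.00382). Its fall in Δ*set-2* held without any one library (highest adjusted p = 0.0542), while the call of *gh11-1* was lost without Δ*set-2* replicate 2 (-1.70, adjusted p = 0.101) or WT replicate 2 (-2.11, adjusted p = 0.136) and that of NCU01900 without WT replicate 2 (1.59, adjusted p = 0.129). Over the 3 lists 9 genes were called in Δ*set-2* over WT, against 4 without Δ*set-2* replicate 2, 5 without WT replicate 1 and 3 without WT replicate 2.

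The 9 other regulators of carbon and cellulose use, none of them ASH1-marked, gave 0 calls of 9 tested in *ash1*(Y888F) over WT (edgeR, with 0 at an unadjusted p under 0.05 and 0 by DESeq2), and their median log2 fold change was -0.16. *cre-1*, the carbon catabolite repressor of these genes, had 3275 and 2800 counts in *ash1*(Y888F), against 3474 and 2640 in WT, with a log2 fold change of 0.07 ± 0.33 (adjusted p = 0.938), and it is named outside the rule for named genes. In Δ*set-2* 2 of the 9 fell, near the 19.8% of all genes that were lower: NCU05846 had 92 and 91 counts in Δ*set-2*, against 158 and 137 in WT (-0.80 ± 0.25, adjusted p = 0.0551), and *col-26*, a regulator of glucose and starch use, had 441 and 425 counts in Δ*set-2*, against 551 and 537 in WT (-0.44 ± 0.17, adjusted p = 0.0979). In Δ*mus-52*, where 1.51% of all genes were lower, 1 of the 9 fell, NCU01856, with 4225 and 4376 counts in Δ*mus-52*, against 9121 and 8857 in WT (-1.25 ± 0.16, adjusted p = 0.0726). Both calls in Δ*set-2* were lost without any one library (adjusted p 0.103 to 0.308), and the call in Δ*mus-52* without either Δ*mus-52* library or WT replicate 1 (adjusted p 0.132 to 0.153).

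The 9 genes taken as other sugar transporters, of which 5 are ASH1-marked and 7 have no symbol in RefSeq, gave 4 higher and 0 lower of 8 tested in *ash1*(Y888F) over WT, with a median log2 fold change of 1.53. Over all genes 13% were higher, and over ASH1-marked genes 58.4% were, with a median of 2.34. NCU04963 was counted 171 and 3212 times in *ash1*(Y888F), while Δ*set-2* had 926 and 928 counts, against 92 and 85 in WT, which gave 4.24 ± 1.20 (adjusted p = 0.0820) and 3.27 ± 0.19 (adjusted p = 9.6e-04). NCU00988 was counted 32 and 129 times in *ash1*(Y888F), while Δ*set-2* had 16 and 62 counts, against 9 and 6 in WT, which gave 3.42 ± 0.75 (adjusted p = 0.0373) and 2.24 ± 0.74 (adjusted p = 0.0648). Both rose in each mutant, and they were the 2 genes of the list that rose in Δ*set-2*, of 7 tested, where 21.7% of all genes were higher. NCU08152 had 10 and 35 counts in *ash1*(Y888F), against 1 and 0 in WT, a ratio of 46.3 with a counting interval of 7.90 to 1871 (adjusted p = 0.0327), and NCU00821 had 853 and 496 counts in *ash1*(Y888F), against 203 and 339 in WT (1.43 ± 0.40, adjusted p = 0.0790). In Δ*mus-52* NCU00821 had 536 and 782 counts, and its 1.10 ± 0.27 over WT did not pass in edgeR (adjusted p = 0.158). NCU04963 had 190 and 178 counts there, and its 0.87 ± 0.21 did not pass either (adjusted p = 0.148). NCU08152 had 0 and 1 counts there and NCU00988 5 and 11, and they were not tested. In NCU04963 replicate 2 of *ash1*(Y888F) was again the higher library, by a wider margin than in *cdt-1*, while in NCU00821 it was the lower one. In *ash1*(Y888F) the call of NCU04963 was lost without WT replicate 1 (4.35, adjusted p = 0.128) and its value was 1.11 (adjusted p = 0.0653) without *ash1*(Y888F) replicate 2, and the call of NCU00821 was lost without *ash1*(Y888F) replicate 1 (0.85, adjusted p = 0.106) or WT replicate 1 (1.15, adjusted p = 0.307). NCU08152 was under the low-count limit and not tested without *ash1*(Y888F) replicate 2, and kept its call without any one of the other 3 libraries (highest adjusted p = 0.0899). NCU00988 kept its call in *ash1*(Y888F) without any one library, at 2.23 without *ash1*(Y888F) replicate 2, and lost it in Δ*set-2* without Δ*set-2* replicate 2 (0.96, adjusted p = 0.387), WT replicate 1 (2.61, adjusted p = 0.156) or WT replicate 2 (1.93, adjusted p = 0.285).

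**Figure D5:**
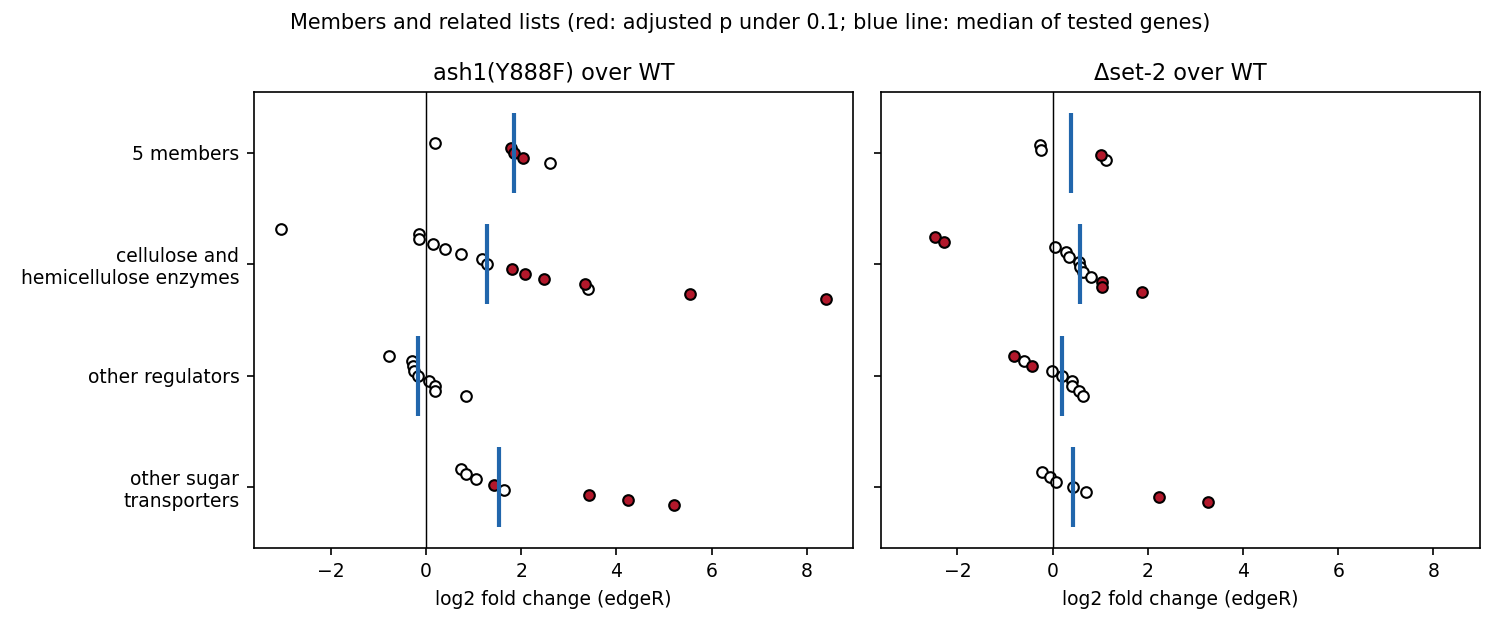
Log2 fold changes (edgeR) of the 5 members and of the tested genes of the 3 lists, for *ash1*(Y888F) over WT on the left and Δ*set-2* over WT on the right. Each circle is a gene, red where the adjusted p is under 0.1, and blue lines are medians of the genes tested. In *ash1*(Y888F) the median is 1.86 for the members, 1.28 for enzymes, -0.16 for other regulators and 1.53 for other sugar transporters.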

How the data were processed

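RNA was taken from 8 libraries, 2 for each of 4 strains. The authors prepared stranded poly-A+ libraries, sequenced single-end reads, removed poor reads (k-mer filter) and adapters using Stacks, mapped the rest using TopHat2 and counted them per gene by strand using HTSeq. They deposited raw counts per gene, which were used as they are, and reads assigned to no gene were left out of library sizes and tests. The versions of the tools named here are not stated by any source used here. Replicate numbers come from the library names. One table without column names holds the first Δ*mus-52* library, 3 columns identical to other libraries and 4 per-library columns left out for want of sample names. The deposited ChIP-seq gene lists, whose score is 0 throughout, served as lists of members only, and the deposited H3K27 tables hold the authors' log2 ratios of coverage, mutant over WT, computed with deepTools from Bowtie2 alignments to the corrected OR74A genome (NC12). Deposited tables of the authors' own DESeq2 comparisons, with fold changes and p-values, were not used.

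Pairs of strains were fitted with edgeR 4.0.16 in R 4.3.3 (quasi-likelihood test after TMM scaling, genes filtered at a minimum count of 10, adjusted p under 0.1). For *ash1*(Y888F) against Δ*set-2* the WT libraries were part of the fit. Standard errors were approximated by dividing the log2 fold change by the square root of its F value. CPM are scaled with TMM. Correlations used log2 CPM with a prior count of 2 over genes with an average log2 CPM of at least 3. Alternatives were DESeq2 1.42.0, RLE size factors, no filter, a fit of all strains, a block for the replicate number, an adjusted p under 0.05, Δ*mus-52* as WT or pooled with WT, and the removal of each library in turn, in which the strain's remaining library is assumed to vary as the other strain's do. Leaving out libraries with Δ*mus-52* as WT was added after seeing the data. The fit was tested on simulated data, in which the changed genes had higher mean counts than *clr-2* and *cdt-2*. That test therefore does not cover genes with so few counts. A count of 0 in a group allows 3 counts, and intervals (95%) cover counting error only.

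The 5 members and the lists were chosen with earlier results of these data known. Genes named are the 5 members, up to 4 called genes with the smallest p in each list and comparison (NCU07898, *cdh-1* and *gh7-1* lie past these and were named after their values were seen), the 2 genes most like each member, and the gene on either side of it. Symbols come from the RefSeq annotation of NC12, in which 23 of the 37 listed genes have one. Tables and figures were made in Python 3.11.15 (matplotlib 3.10.9, scipy 1.17.1, pandas 2.3.3, numpy 2.4.6).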

Additional observations from a re-analysis of the deposited data

Results flagged for a closer look

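The effects of the mutants against WT differed, by the direct comparison of *ash1*(Y888F) with Δ*set-2* in edgeR, for 1 member and 11 genes of the lists, of which 9 were higher in *ash1*(Y888F) and 2 lower, where 17.7% of all genes were higher and 14% lower. Tested were 5 members, 16 enzymes, 9 other regulators and 8 other sugar transporters. Counting both directions, the share of these that was called was near the share over all genes. *cdt-1* differed by 2.89 ± 0.96 on the log2 scale (adjusted p = 0.0701), at 150 and 1313 counts in *ash1*(Y888F), against 77 and 138 counts for Δ*set-2*. Among the enzymes the differences of *ash1*(Y888F) minus Δ*set-2* were 5.81 ± 0.83 for *gh1-1* (adjusted p = 0.00382), 3.97 ± 0.63 for *gh5-1* (adjusted p = 0.00543), an endoglucanase gene with 36 and 80 counts in *ash1*(Y888F), against 4 and 4 for Δ*set-2*, 2.72 ± 0.57 for *gh3-4* (adjusted p = 0.0143) and 0.76 ± 0.21 for NCU02343 (adjusted p = 0.0421). Past the 4 enzymes of smallest p, the differences were 3.74 ± 1.16 for NCU07898 (adjusted p = 0.0570), with 150 and 12 counts in *ash1*(Y888F), against 8 and 6 for Δ*set-2*, 1.52 ± 0.47 for *cdh-1*, a cellobiose dehydrogenase gene with 113 and 54 counts in *ash1*(Y888F), against 35 and 32 for Δ*set-2* (adjusted p = 0.0578), and -1.87 ± 0.62 for *gh7-1*, which has H3K27me2/3, with 6 and 2 counts in *ash1*(Y888F), against 18 and 16 for Δ*set-2* (adjusted p = 0.0716). Among the other transporters they were 3.25 ± 0.83 for NCU08152 (adjusted p = 0.0305), 1.48 ± 0.40 for NCU00821 (adjusted p = 0.0358) and 1.28 ± 0.48 for NCU01633 (adjusted p = 0.0988). Among the other regulators *rca-1* differed by -0.82 ± 0.27 (adjusted p = 0.0716), with 113 and 114 counts in *ash1*(Y888F), against 194 and 262 for Δ*set-2*. The calls of *gh1-1*, *gh5-1* and *gh3-4* held without any one library (highest adjusted p = 0.0981). Those of NCU07898 and *cdh-1* were lost without *ash1*(Y888F) replicate 1 (0.87 and 0.79, adjusted p = 0.465 and 0.243) or either Δ*set-2* library (0.180 to 0.250), and that of *gh7-1* without any one library but *ash1*(Y888F) replicate 1 (0.131 to 0.240). That of *cdt-1* was lost without *ash1*(Y888F) replicate 2 or either Δ*set-2* library (adjusted p 0.195 to 0.417), that of NCU08152 without the same 3 libraries (0.124 to 0.184), that of NCU02343 without *ash1*(Y888F) replicate 1 or either Δ*set-2* library (0.104 to 0.187), that of NCU00821 without *ash1*(Y888F) replicate 1 or Δ*set-2* replicate 2 (0.139 and 0.210), that of NCU01633 without *ash1*(Y888F) replicate 2, either Δ*set-2* library or WT replicate 1 (0.101 to 0.348) and that of *rca-1* without any *ash1*(Y888F) or Δ*set-2* library (0.117 to 0.375). Each of the 12 rests on 2 libraries of a strain, and the libraries of *ash1*(Y888F) have different dates.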

How the results depend on the processing

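Counts of members and of list genes called are given against those in the report (3 members and 10 list genes for *ash1*(Y888F) over WT, 1 and 9 for Δ*set-2* over WT, 0 and 1 for Δ*mus-52* over WT, 1 and 11 for *ash1*(Y888F) over Δ*set-2*). For *ash1*(Y888F) over both control strains pooled 3 members were called, but *cdt-1* was among them (2.87, adjusted p = 0.0363) and *xlr-1* was not (1.02, adjusted p = 0.256). Members called in *ash1*(Y888F) over WT numbered 1 with DESeq2 (*xlr-1*), without a low-count filter, with the replicate block (*xlr-1*) and over Δ*mus-52* (*cdt-1*), 0 at an adjusted p under 0.05, and 0 to 3 without one library. In Δ*set-2* over WT they numbered 0 with DESeq2, over Δ*mus-52*, over both control strains pooled and at an adjusted p under 0.05, and 0 to 1 without one library, and list genes numbered 17 over Δ*mus-52* and 3 to 6 without one library. In Δ*mus-52* over WT 1 member (*xlr-1*) was called with DESeq2 and with the replicate block, and list genes numbered 5 with DESeq2, 8 with the replicate block, 0 in the fit of all strains, 0 at an adjusted p under 0.05 and 0 to 3 without one library. Between the mutants 0 members and 6 list genes passed at an adjusted p under 0.05, and 0 to 2 members and 3 to 12 list genes were called without one library. No value that changed sign was past the threshold after the change, but *xlr-1* was past it over WT in both mutants. Over Δ*mus-52*, Δ*set-2* gave log2 fold changes of 0.12 for *clr-1*, -0.35 for *xlr-1* and 0.27 for *cdt-1*, and *ash1*(Y888F) gave -0.17 for *clr-1* and -0.32 for *xlr-1* without *ash1*(Y888F) replicate 2, an alternative chosen after seeing the data. Without one library the range was -0.54 to 0.65 for *clr-1* in *ash1*(Y888F) over WT, -0.53 to 0.076 for *clr-1* and -0.89 to 0.82 for *cdt-1* in Δ*set-2* over WT, -1.14 to 0.57 for *cdt-1* in Δ*mus-52* over WT, and -0.26 to 0.93 for *clr-1* and -0.038 to 0.99 for *cdt-2* in *ash1*(Y888F) over Δ*set-2*. The cause of these changes was not tested, except that a fit without a library holds fewer libraries. Of the 10 genes most like the members, 10 were found again with a prior count of 1 and 1 with Spearman's correlation. Same-numbered libraries did not vary together in all strains. Their deviations correlated at 0.44 between *ash1*(Y888F) and Δ*set-2* and at 0.67 between Δ*mus-52* and WT, but at -0.22 to -0.08 between the other strains. The main test of Δ*mus-52* over WT left this pairing out, and the replicate block took it in. *clr-2* and *cdt-2* had 4 to 21 counts in every library, the fewest of the 5 members, and the part of depth in their calls was not tested.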
